A study of Homo sapiens with 2 samples.

Results

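The cytosolic ribosomal protein genes were compared in TFK1 cells between a knockdown of MBD2 and a negative control. The genes were chosen by symbol alone, as the rows named RPL or RPS with a number (with the suffixes A, L or X and a final 1 allowed), RPLP0, RPLP1, RPLP2 and RPSA that lie on an autosome or the X chromosome, without the RPS6K kinases. This rule matched 105 rows of the deposited tables, of which 19 lay on patches or alternate haplotypes and were left out. It left 86 genes of the 56638 in the tables, 52 of the large (60S) and 34 of the small (40S) subunit. No measured value entered this rule, though it was set with earlier results of these data known.

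TFK1 is an established human cholangiocarcinoma cell line, derived from a cancer of the bile duct epithelium. MBD2 is a protein that binds methylated CpG dinucleotides and belongs to the NuRD repressor complex. Cells named shMBD2 here carried an shRNA against MBD2, delivered by lentivirus, and cells named shNC carried a negative control shRNA, and the labels list no further treatment for either. RNA of each was sequenced as 1 library, so the spread between cultures was not measured and the differences below carry no p-value. The counts summed to 14728814 in shMBD2 and 14467406 in shNC. MBD2 had 365 counts in shMBD2 and 1013 in shNC, a log2FC of -1.48. The 4 epithelial keratins and 2 other biliary markers looked for (KRT7, KRT8, KRT18, KRT19, EPCAM, SOX9) summed to 67596 and 83670 counts, with 5 of the 6 lower in shMBD2. KRT8 held 49193 and 62047 of these counts. KRT19 was the marker that was higher, with 119 and 70 counts and a log2FC of 0.75. Markers of other cell types were at or near 0, at 1 and 3 counts for the 4 leukocyte genes, 7 and 14 for the 4 fibroblast genes, 0 and 1 for the 2 endothelial genes found, and 4 and 0 for the 3 hepatocyte genes.

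Each ribosome is built from 4 ribosomal RNAs and a set of proteins that are, with few exceptions, present in 1 copy per particle, so their mRNAs are kept at related levels in most cells. Their mRNAs start with a C followed by a run of pyrimidines, the 5′ terminal oligopyrimidine (TOP) motif, through which mTORC1 and the protein LARP1 control their translation. Most of these genes have many processed pseudogenes, copies made from spliced mRNA, which makes short reads hard to place.

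The ribosomal protein genes took 3.64% of all counts in shMBD2 and 3.64% in shNC, 535630 and 526040 counts. Their exact Clopper-Pearson 95% intervals were the same at the precision given, 3.63% to 3.65%. These intervals, like all intervals below, cover counting error only. The share held by the mitochondrial genome was 9.56% and 9.37%. In the authors' TPM (transcripts per 1000000, which divides by gene length) the ribosomal protein genes made up 5.38% of shMBD2 and 5.43% of shNC. Each library is scaled to its own total, so a change in these mRNAs per cell that ran in step with all other mRNA, or a change in the number of cells that carried them, cannot be told apart from no change.

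The level per length spanned more than 3 orders of magnitude, from no read to that of RPS2. RPS2, a core protein of the small subunit near the mRNA entry channel, had 3055 TPM in shMBD2 and 3099 in shNC, from 27044 and 26737 counts. RPL8, which lies near the peptidyl transferase centre, followed with 2309 and 2359 TPM, and RPL4, which reaches into the peptide exit tunnel, with 2205 and 2156 TPM. RPL19, which forms a bridge between the subunits, had 1976 and 2047 TPM, from 14719 and 14864 counts. In each of these genes the levels of the libraries lay close together, with a log2FC of 0.0076 for RPS2, 0.061 for RPL4 and -0.023 for RPL19.

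Of the 86 genes, 21 were above 1000 TPM in shNC and 21 below 100 TPM, and the median was 420.0 TPM in shMBD2 and 477.7 in shNC. Both medians rest on the same middle genes, RPL41 (409 and 485 TPM) and RPS15 (431 and 470 TPM). The distance between the medians is therefore that of these genes. Gene by gene, the median log2FC on log2 of TPM plus 0.1 was -0.020. Several proteins found in every cytosolic ribosome were among the lowest. RPS28 had 4.02 and 3.53 TPM (35 and 30 counts in shMBD2 and shNC), RPS10 had 6.27 and 5.05 TPM (28 and 22 counts), and RPL17 had 5.66 and 6.39 TPM (30 and 33 counts). RPL10L had no count in either library, which allows up to 3 counts in each, and RPS10L had 0 and 3 counts. Both of these fell under the minimum of 10 counts over both libraries that was set for a log2FC, and the other 84 genes passed it.

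The TPM also carries the length that the authors' gene model gave to each gene. A level of 1 TPM corresponded to between 3.48 counts (RPS27) and 42.8 counts (RPL37) in shNC, with a median of 10.3. RPL37, a zinc-binding protein of the large subunit, had the most counts per TPM and stood at 115 and 120 TPM with 5067 and 5119 counts. RPS27 stood at 1279 and 1337 TPM with 4570 and 4657 counts. Counts of RPL37 were thus the higher of the pair and its TPM the lower by far. Levels compared between genes rest on those lengths, whereas a log2FC within a gene does not.

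**Figure D1:**
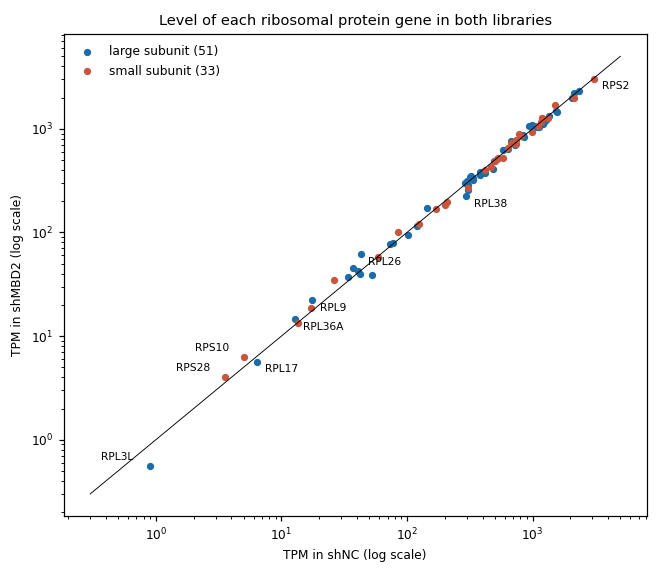
TPM of each ribosomal protein gene with at least 10 counts over both libraries, shNC on the horizontal and shMBD2 on the vertical axis, both on log scales. Points are genes, coloured by subunit, and the line marks equal levels. Genes lie along the line from RPL3L below 1 TPM to RPS2 at 3055 and 3099 TPM, and the distance from it is widest among genes with few reads.

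Between the libraries the ribosomal protein genes moved little. Log2FC is shMBD2 over shNC after scaling with TMM factors and adding 0.5 counts. The median log2FC over the 84 genes was 0.0081, beside -0.0082 over all 17545 genes with at least 10 counts. The middle of the distribution, between its quartiles, ran from -0.050 to 0.13, a width of 0.18, beside 0.48 for all genes. No ribosomal protein gene was past a log2FC of 1 or -1, where 10.6% of all genes were, and 2 (RPL26 higher, RPL3L lower) were past 0.5 or -0.5, where 26.0% of all genes were.

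Direction was close to even. Of the 84 genes, 46 (54.8%) were higher in shMBD2, beside 48.9% of all genes, and 38 were lower. On the scale of log2 of the authors' TPM plus 0.1, 35 were higher and the rest lower, and 13 genes near 0 changed sign with the scaling. The counting interval left out 0 in 42 genes, 25 above and 17 below, and in 38.1% of all genes. These genes are more deeply counted than most, which narrows their intervals.

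The next comparison uses only the well counted genes, those with at least 1000 counts over both libraries, a minimum chosen after the data were seen. Among them were 69 ribosomal protein genes, with 36 (52.2%) higher and 33 lower in shMBD2, beside 52.4% higher of all genes with this minimum. Their log2FC ran from -0.38 (RPL38) to 0.31 (RPL22L1). Of these 69, 65 (94.2%) lay between -0.25 and 0.25, beside 74.5% of the 5864 genes with this minimum. Their standard deviation over genes was 0.119, beside 0.342. None of the 69 was past 0.5 or -0.5, where 6.58% of all genes with this minimum were. The counting interval left out 0 in 38 of them, 22 above and 16 below, beside 57.2% of all such genes. The sets share a minimum count and are not matched in depth. In shNC the 69 genes had a median of 639 TPM and the 5864 genes 52.6 TPM. The 15 tested genes with fewer counts had a median of 0.12, with 10 higher and 5 lower.

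**Figure D2:**
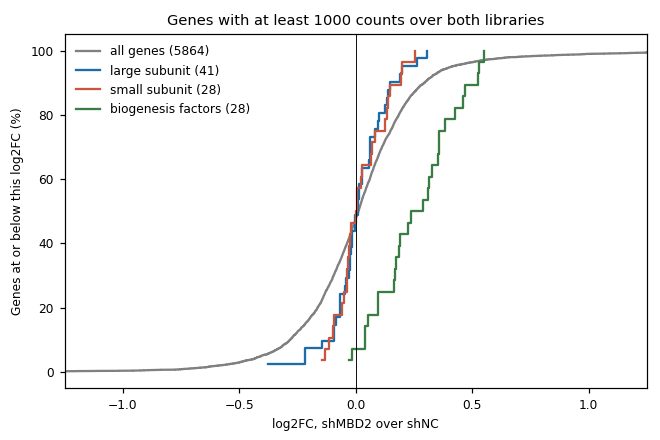
Share of genes (%) at or below each log2FC of shMBD2 over shNC, for genes with at least 1000 counts over both libraries. Lines are all 5864 genes (the axis leaves out those furthest from 0), 41 large-subunit genes, 28 small-subunit genes and 28 ribosome biogenesis factors. The lines of both subunits are steeper than that of all genes and cross 0 with it, and the line of the biogenesis factors lies to the right.

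The large and the small subunit did not separate. The 51 large-subunit genes tested had a median log2FC of 0.0081, with 26 higher and 25 lower, and the 33 small-subunit genes had a median of 0.011, with 20 higher and 13 lower. The difference of the medians, large minus small, was -0.0027. It was 0.0043 among genes with at least 1000 counts, -0.0091 without the paralogs and -0.024 with pseudogene counts added to each gene, so its sign and size depended on which genes and reads were kept. Genes whose counting interval left out 0 lay on both sides in each subunit. There were 15 above and 11 below of 51 in the large, and 10 above and 6 below of 33 in the small. Of all genes with at least 10 counts, most of them less deeply counted, 38.1% had such an interval. Of those with at least 1000 counts 57.2% had one, beside 38 of the 69 ribosomal protein genes.

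Summed counts gave the balance of the subunits as a whole. Large-subunit genes summed to 329023 counts in shMBD2 and 324705 in shNC, a log2FC of 0.010 (interval 0.0032 to 0.017). Small-subunit genes summed to 206607 and 201335, a log2FC of 0.028 (0.020 to 0.037). The sums of the small subunit were thus higher by 0.018 relative to those of the large on the log2 scale, and the ratio of large to small counts was 1.59 in shMBD2 and 1.61 in shNC. In TPM that ratio was 1.38 and 1.41. With 1 library per condition it was not tested whether cultures of the same kind differ by as much, and a scaling by total counts put the large-subunit sum below 0, at -0.0068.

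**Figure D3:**
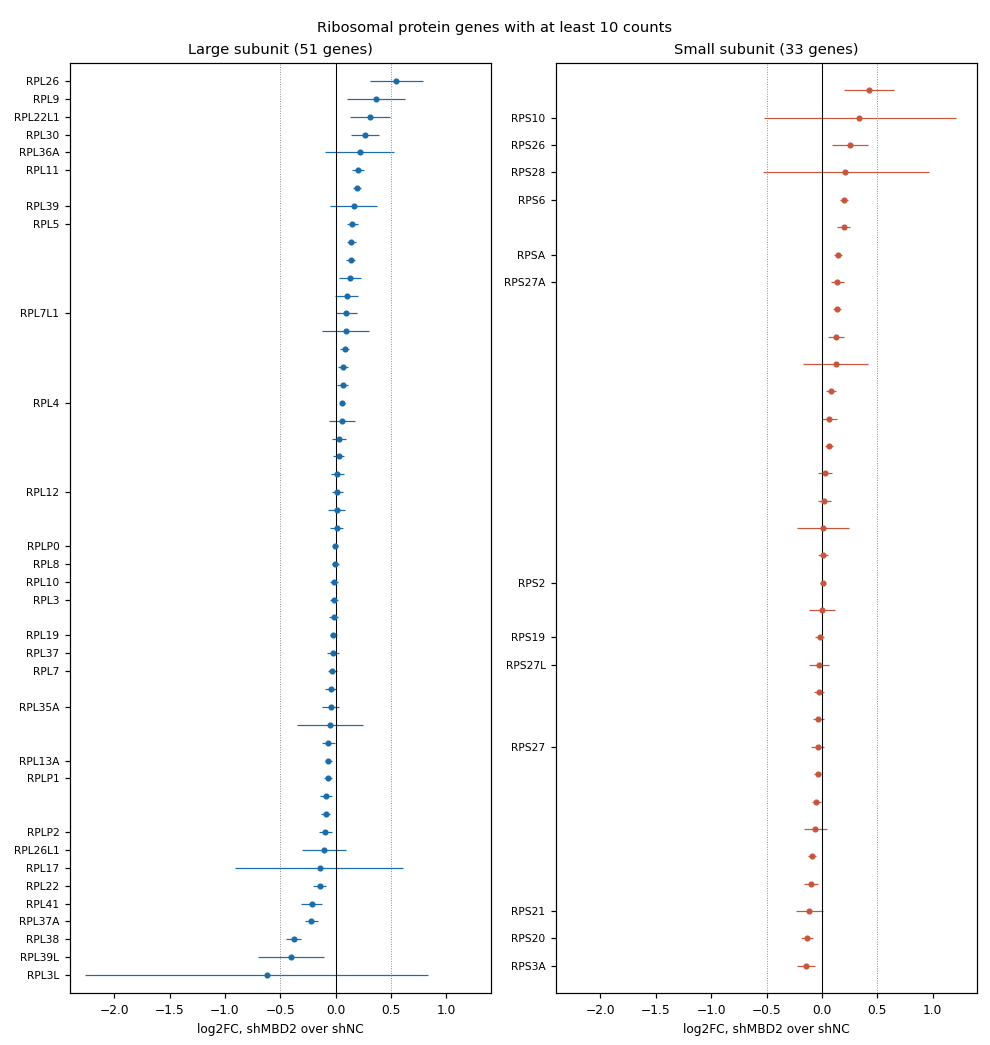
Log2FC of shMBD2 over shNC for each of the 84 ribosomal protein genes with at least 10 counts, large subunit on the left and small subunit on the right, in order of log2FC, with names for genes described in the text. Bars are exact 95% intervals of the split of the reads (counting error only), and dotted lines mark -0.5 and 0.5. Most points lie within 0.25 of 0, and the widest bars belong to RPL3L, RPL17, RPS10 and RPS28, which have few reads.

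The P stalk is the flexible arm of the large subunit that recruits and activates the elongation factors. Its base RPLP0 had 22232 counts in shMBD2 and 22133 in shNC, and RPL12, which binds beside it, had 6672 and 6566. The acidic proteins at its tip were RPLP1 with 11788 and 12278 counts and RPLP2 with 5016 and 5319. The tip proteins were lower in shMBD2, RPLP1 with a log2FC of -0.068 and RPLP2 of -0.093, whereas the base proteins had -0.0024 and 0.014. Summed, the stalk genes had a log2FC of -0.027 (interval -0.046 to -0.0086).

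RPL5 and RPL11 bind 5S ribosomal RNA and enter the large subunit with it, and outside the ribosome this particle is known to bind MDM2, the ubiquitin ligase of p53. RPL5 had 7472 counts in shMBD2 and 6695 in shNC, a log2FC of 0.15 (interval 0.10 to 0.20). RPL11 had 6032 and 5215, a log2FC of 0.20 (0.15 to 0.25). Both were higher in shMBD2, at 1080 and 993 TPM and at 1061 and 941 TPM, and their sum had a log2FC of 0.17. The 5S particle pair thus sat in the upper part of the range of the large subunit.

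Around the peptide exit tunnel, 4 of 9 genes were higher in shMBD2, where 48.9% of all genes were. The median was -0.023, from RPL22 at -0.15 to RPL26 at 0.55. In the small subunit, the 14 genes of the head had a median of 0.017, with 8 higher, and their summed counts, 73853 and 73890, had a log2FC of -0.0096. Genes of the head ranged, among those with at least 100 counts, from RPS20 at -0.13 to RPS27A, a ribosomal protein made as a fusion with ubiquitin, at 0.14. The 17 genes of the body and platform had a median of 0.011, with 11 higher, and summed to 130333 and 125100 counts, a log2FC of 0.050 (interval 0.039 to 0.061). RPS3A at -0.14 and RPS26 at 0.25 were the lowest and the highest of them. In each of these structural groups genes of both directions stood side by side.

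Heterozygous loss of certain ribosomal protein genes causes Diamond-Blackfan anemia. A list of 9 such genes, which does not hold all that are known, was looked at. Of these, 7 were higher and 2 lower in shMBD2, and their median was 0.12. Higher were 48.9% of all genes and 54.8% of the 84 ribosomal protein genes tested, so the tally depends on which genes were listed. The lower ones were RPL35A, with 2625 and 2694 counts and a log2FC of -0.046, and RPS19, the gene in which the disease was first found, with 9584 and 9658 counts and -0.020. The highest with at least 100 counts was RPS26, and RPL5 and RPL11 are in this list too.

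At the lower end stood 3 genes of small proteins of the large subunit. RPL38, which in the mouse is known for its part in the translation of Hox mRNAs, had 3140 counts in shMBD2 and 4054 in shNC (224 and 297 TPM), a log2FC of -0.38 (interval -0.45 to -0.31). RPL37A, a zinc-binding protein of the large subunit, had 4610 and 5334 counts, a log2FC of -0.22. RPL41, which is among the smallest proteins of the cell, had 1636 and 1890 counts, also a log2FC of -0.22. RPL38 was the only gene of the 69 with at least 1000 counts to lie below -0.25.

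The next genes from the bottom had smaller differences. RPL22 had 4870 and 5355 counts and a log2FC of -0.15, and RPS3A, which binds at the mRNA exit side, had 2350 and 2582 and -0.14. RPS20 had 5440 and 5929 counts and -0.13. RPS21, on the solvent side of the small subunit, had 1050 and 1130 counts and -0.11, with an interval (-0.24 to 0.0077) that held 0. The paralog RPL39L had the lowest value of those with at least 100 counts in a library and is described with the other paralogs.

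At the upper end most genes had few reads. RPL26, at the rim of the exit tunnel, had 352 counts in shMBD2 and 239 in shNC (61.4 and 42.8 TPM), a log2FC of 0.55 (interval 0.31 to 0.79). RPL9, a protein of the large subunit near the base of the P stalk, had 273 and 211 counts and a log2FC of 0.36 (0.098 to 0.63). RPL36A, near the exit site of the transfer RNA, had 187 and 160 counts and 0.22 (-0.096 to 0.53), so counting error alone could hold its difference. The level of all 3 was below 100 TPM in both libraries.

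Among better counted genes, RPL30 had 1106 counts in shMBD2 and 916 in shNC, a log2FC of 0.26 (interval 0.14 to 0.39). RPS26, which contacts the mRNA as it leaves the small subunit, had 689 and 574 counts and 0.25 (0.093 to 0.42). RPL11 followed at 0.20. RPS6, the classical substrate of the S6 kinases downstream of mTORC1, came just after it with 13518 and 11714 counts and a log2FC of 0.20 (0.16 to 0.23). RPS6, with 1705 and 1515 TPM, was thus a highly expressed gene at the upper end, named here after its value was seen.

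Several ribosomal proteins have a paralog that can take their place, in some cases in certain tissues only. RPL22L1 is the paralog of RPL22, which in other cells is known to lower RPL22L1 by acting on its transcript. RPL22L1 had 566 counts in shMBD2 and 455 in shNC, a log2FC of 0.31 (interval 0.13 to 0.49), and RPL22 had 4870 and 5355, a log2FC of -0.15 (-0.20 to -0.090). The paralog was higher and the parent lower in shMBD2, so its share of the counts of the pair was 10.4% (9.61% to 11.3%) in shMBD2 and 7.83% (7.15% to 8.55%) in shNC.

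RPL39L and RPL26L1 went the other way. RPL39L, best known from the testis, had 167 counts in shMBD2 and 220 in shNC, a log2FC of -0.41 (interval -0.71 to -0.11), while RPL39 had 405 and 360 and a log2FC of 0.16 (-0.047 to 0.37). Its share of the counts of the pair was 29.2% (25.5% to 33.1%) and 37.9% (34.0% to 42.0%). In TPM RPL39L stood at 38.6 and 52.2 and RPL39 at 37.0 and 33.7, so the row of the paralog was at or above that of its parent per length in both libraries. Most reads that carry the name of RPL39 lie on its pseudogenes, and with these added to the parent the share of RPL39L was 7.86% and 10.2%, so the order of the pair rests on how those reads were placed.

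RPL26L1 had 397 counts in shMBD2 and 424 in shNC, and made up 53.0% (49.4% to 56.6%) and 64.0% (60.2% to 67.6%) of the counts of its pair with RPL26. Its own log2FC was -0.10 (interval -0.30 to 0.097), so the shift in share came mainly with RPL26. Per length RPL26L1 was the higher of the pair in both libraries, at 93.6 and 103 TPM against 61.4 and 42.8.

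In the pairs of RPL7 and RPS27 the shares of the libraries lay closer together. RPL7L1, which acts in the making of the ribosome, had 16.1% and 15.0% of the counts shared with RPL7, from 1966 and 1829 counts. RPS27L, known as a p53 target, had 30.9% and 30.7% of those shared with RPS27, from 2042 and 2062 counts. RPL3L, the paralog of striated muscle, had 7 and 11 counts, 0.044% and 0.069% of its pair with RPL3. The difference in share is large in proportion, but its log2FC of -0.63 (interval -2.27 to 0.84) rests on those 18 reads. RPL10L, the paralog of RPL10 in the testis, had no read, while RPL10 had 13695 and 13757 counts.

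**Figure D4:**
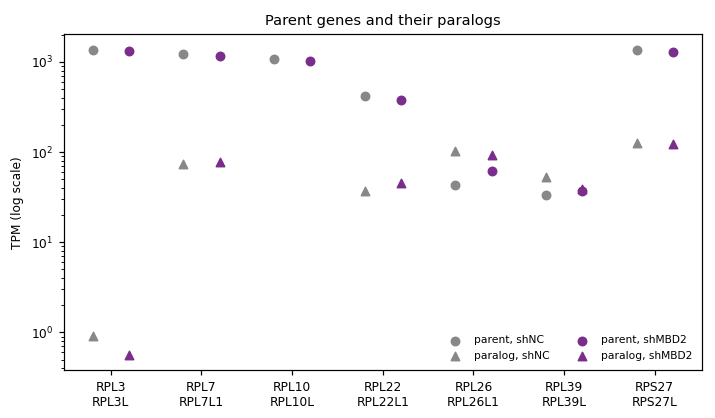
TPM on a log scale for 7 parent genes (circles) and their paralogs (triangles) in shNC (grey) and shMBD2 (purple). RPL10L is at 0 and not drawn. RPL26L1 lies above RPL26 in both libraries, RPL39L lies above RPL39 in shNC and beside it in shMBD2, and the other paralogs lie far below their parents. The order in the pairs of RPL26 and RPL39 may depend on how reads were placed.

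How far reads can be placed differs from gene to gene. Of the 86 genes, 75 have at least 1 pseudogene named after them in the tables, 856 rows in all. These pseudogenes held 23234 counts in shMBD2 and 22552 in shNC, 0.158% and 0.156% of all counts. Of the 856, 88 had at least 10 counts, with a median log2FC of 0.12. In shMBD2 53 (60.2%) were higher and 35 lower, beside 48.9% of all genes higher. Past 0.5 or -0.5 were 34 of these 88, where 26.0% of all genes with at least 10 counts were, and these pseudogenes have far fewer reads than the genes they copy.

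In 3 genes the pseudogenes held more counts than the gene itself. RPL41 had 1636 and 1890 counts, and its pseudogene RPL41P1 had 2450 and 3025. RPL39 had 405 and 360, and RPL39P3 had 1547 and 1576. RPS10 had 28 and 22, and its pseudogenes summed to 57 and 52. When the pseudogene counts were added to each gene, RPL41 had a log2FC of -0.28 in place of -0.22, RPL39 had 0.0030 in place of 0.16, RPL9 had 0.22 in place of 0.36 and RPL26 had 0.57 in place of 0.55. The median over the 84 genes became 0.0055.

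Other large groups of pseudogene counts stood beside RPL13A (4149 and 3903), RPL7 (2372 and 2108), RPSA (2114 and 1628) and RPS2 (2062 and 2149). Each of these sums is below the count of the gene itself, which was 15995 and 16639 for RPL13A and 27044 and 26737 for RPS2. Among pseudogenes with at least 100 counts, RPSAP47 was highest with 463 and 338 counts, a log2FC of 0.44, and RPL23AP7 lowest with 96 and 169, a log2FC of -0.82. RPSA, a ribosomal protein also known as the laminin receptor, itself had 15106 and 13561 counts, a log2FC of 0.15.

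Sequence shared with other genes was measured on 1 transcript per gene in GENCODE 29, for the 84 of 86 genes matched, as the share of its 50-base windows found unchanged in the transcript of another gene. Under 10% was shared in 25 genes, 10% to 50% in 38 and over 50% in 21. The median levels of these classes in shNC were 308, 659 and 337 TPM, and their median log2FC -0.011, 0.021 and 0.0082. Across the 84 genes, which share their libraries, the share and the TPM in shNC had a Spearman correlation of 0.053, given as a description. The transcript was chosen by annotation tags, and by shorter length only among equals. The share, and so the class, depends on its length. RPL27A, at 4916 bases with a coding length of 444, had 279 shared windows, or 5.73%. RPL24, at 623 bases, had 259, or 45.1%.

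The lowest and the highest genes lay in different classes. RPL17 shared 90.3% of its windows, all of them with the readthrough gene RPL17-C18orf32, and RPS10 shared 82.2%, most with RPS10-NUDT3. RPL9 shared 86.0% and RPL26 60.8%. RPS2 shared 69.4% and was nonetheless the gene with the most TPM. RPL22L1 shared 0.70%, and RPL38 had no shared window on its own strand and 55.9% when both strands were searched. Strandedness of the counting and the treatment of reads with several positions are not given in the sources used here, so the values of RPL9, RPL17, RPL26 and RPS10 are uncertain, and reads of overlapping antisense transcripts cannot be told apart for RPL38. The same limit holds for RPL10 (23.5% on its own strand and 76.2% on either strand), RPL30 (2.43% and 34.8%), RPS6 (8.07% and 25.5%) and RPS28 (12.6% and 35.6%).

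The promoters show what these genes share in sequence. RefSeq start sites (build GRCh38.p14) were found for 67 of the 86 genes, and 300 bases around each start were read and compared with the same window in all 35116 entries. A run of at least 8 pyrimidines (C or T) on the sense strand within 50 bases of the start was present in 61 of 67 (91.0%), beside 35.9% of all entries. The start base was C in 47 (70.1%), beside 14.7%, and was followed by at least 4 pyrimidines in 43 (64.2%), beside 4.07%. Thus the window holds the letters of the TOP motif in most ribosomal protein genes and in few genes at large.

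The following 30-base stretches hold the longest pyrimidine run of the genes at both ends of the range and of 3 others, with that run in capitals, 5′ to 3′ on the strand of the gene. The first 3 are the lowest of the well counted genes, the next 5 are at the upper end, and the last 3 have runs of fewer than 8.
RPL38 (chr17:74203677-74203706, plus strand): tctttttcgTCCTTTTCCCCggttgctgct
RPL41 (chr12:56116618-56116647, plus strand): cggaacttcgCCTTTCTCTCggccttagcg
RPL37A (chr2:216498829-216498858, plus strand): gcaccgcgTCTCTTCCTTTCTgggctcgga
RPL26 (chr17:8383174-8383203, minus strand): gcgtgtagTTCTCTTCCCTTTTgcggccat
RPL22L1 (chr3:170870180-170870209, minus strand): gcggccgtagCTTCCTCTCTgctctcgcgg
RPS26 (chr12:56041910-56041939, plus strand): ataacctcgaTTTTCTTCCgccatccggct
RPL11 (chr1:23691793-23691822, plus strand): gaagctccgCTTTCTCTTCCTgctctccat
RPS6 (chr9:19380218-19380247, minus strand): ggaagttggCCCTCTTTTCCgtggcgcctc
RPL3 (chr22:39319607-39319636, minus strand): aaggccgaccggCCTCTaccggcgggattt
RPL26L1 (chr5:172958704-172958733, plus strand): gcctccaggcagTCTTCCaggggtcggcga
RPL10L (chr14:46651758-46651787, minus strand): ttaagagagcgcaTTTTgacttcgaggcac

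The runs of RPL38 and of RPL11 are 11 and 12 bases long although these genes lie near opposite ends of the range, and RPL26 has 14. The longest run need not lie at the start site. In RPL38 it begins at base 9 from the start and in RPL11, whose start base is not C, at base 24. RPL26L1 has 6 where its parent has 14, and RPL10L, with no read, has 4. RPL3, at 1321 and 1362 TPM, has a longest run of 5 and is highly expressed all the same. By class, the 43 genes with the C and at least 4 pyrimidines at the start had a median log2FC of -0.0024 and a median level of 485 TPM in shNC, and the 23 tested genes with another start 0.029 and 582 TPM. The first class ran from RPL38 at -0.38 to RPL26 at 0.55.

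Other promoter features were as follows. CCGGAA, the core letters bound by ETS family factors, was found on either strand in 37 (55.2%) of the 67 promoters and in 17.2% of all entries. TATAAA on either strand was found in 7 (10.4%), beside 11.5%. The median number of CpG dinucleotides in the window was 23, beside 14, and the median ratio of observed to expected CpG 0.90, beside 0.58. The promoters of these genes were thus richer in CpG than most, and DNA methylation was not measured in these libraries. Genes with and without CCGGAA had a median log2FC of 0.019 and -0.0089.

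Log2FC varied a little with the length of the protein. The 23 genes of shortest coding length (75 to 399 bases) among the 69 with at least 1000 counts had a median log2FC of -0.046, with 8 higher in shMBD2. The 23 of middle length (405 to 588 bases) had 0.0082, with 15 higher, and the 23 longest (609 to 1281 bases) 0.015, with 13 higher. Of all genes with at least 1000 counts, 52.4% were higher. Across the 69 genes, which share both libraries, log2FC and coding length had a Spearman correlation of 0.28 and a Pearson correlation of 0.23, and log2FC and the GC content of the transcript a Spearman correlation of -0.19. These are descriptions across genes of 1 pair of libraries, and whether RNA fragment length or RNA quality had a part in them was not tested.

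Ribosomal proteins whose names fall outside the rule lay on both sides of 0. RPL36AL, the paralog of RPL36A, had 1846 counts in shMBD2 and 1995 in shNC, a log2FC of -0.12. FAU, which encodes RPS30 fused to a ubiquitin-like protein, had 667 and 482, a log2FC of 0.46 (interval 0.29 to 0.63), above the highest of the 69 well counted genes, RPL22L1 at 0.31. The ribosomal proteins of mitochondria, encoded in the nucleus and built into a separate ribosome, had a median of 0.050 over 75 genes tested. Of these, 45 (60%) were higher, beside 48.9% of all genes, and none was past 0.5 or -0.5, where 26.0% of all genes were. Among those with at least 100 counts they ranged from MRPL24 (1161 and 1456 counts, -0.34) to MRPS6 (200 and 146 counts, 0.44).

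Other mRNAs with a TOP motif, mainly elongation factors and RNA-binding proteins, had a median log2FC of 0.10 over 16 genes tested. Of these, 12 (75%) were higher, beside 48.9% of all genes and 52.4% of those with at least 1000 counts. The other listed gene, the elongation factor EEF1G, had no count in either library and was not tested. TPT1, a small translation-associated protein, had 7009 counts in shMBD2 and 5618 in shNC, a log2FC of 0.31 (interval 0.26 to 0.36), and EIF3F had 2169 and 2418, a log2FC of -0.17. Their summed counts, 201531 and 190959, had a log2FC of 0.069 (0.060 to 0.078). The translation initiation factors had a median of 0.081 over 31 genes, with 22 (71.0%) higher. They ranged from EIF4H (5759 and 6703 counts, -0.23) to the helicase EIF4A1 (126 and 80 counts, 0.64, interval 0.23 to 1.07). Sequence shared with other genes was not measured for these lists, so the counts of EEF1G and EIF4A1 may not give their levels.

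The factors that assemble ribosomes stood further from 0 than the proteins they assemble. Of 32 ribosome biogenesis factors, 29 (90.6%) were higher in shMBD2 and 3 lower, beside 48.9% of all genes higher. Their median log2FC was 0.26. Of the factors, 4 were past 0.5, where 26.0% of all genes were past 0.5 or -0.5. Among all genes with at least 1000 counts, a minimum that most of these factors reached, that share was 6.58%. Summed counts of the 32 factors were 78258 and 65186, a log2FC of 0.25 (interval 0.24 to 0.27). NOP16, a nucleolar protein of large-subunit assembly, had 384 counts in shMBD2 and 230 in shNC, a log2FC of 0.73 (0.49 to 0.97). FBL, the methyltransferase of the box C/D particles that modify ribosomal RNA, had 5638 and 5720, a log2FC of -0.030. Its partners in the same particles, NOP56 (3885 and 2871) and NOP58 (2881 and 1991), had 0.43 and 0.52, and are named here after their values were seen.

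RNA polymerase I, which transcribes the large ribosomal RNA precursor, and its factors had a median of 0.14 over 14 genes. Of these, 9 (64.3%) were higher, beside 48.9% of all genes. Among those with at least 100 counts they ranged from UBTF (2424 and 2564 counts, -0.090) to TAF1A (194 and 142 counts, 0.44). The mTORC1 pathway and other regulators of translation had a median of 0.076 over 12 genes tested, with 8 (66.7%) higher. RPS6KB2, a kinase of RPS6, was lowest with 241 and 280 counts and a log2FC of -0.22. MYC, a transcription factor known to drive genes of ribosome assembly, was highest with 2090 and 1612 counts and a log2FC of 0.37 (interval 0.27 to 0.46). The biliary markers had a median of -0.35 over 6 genes in the same pair of libraries, and their part in the differences of these lists was not tested.

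**Figure D5:**
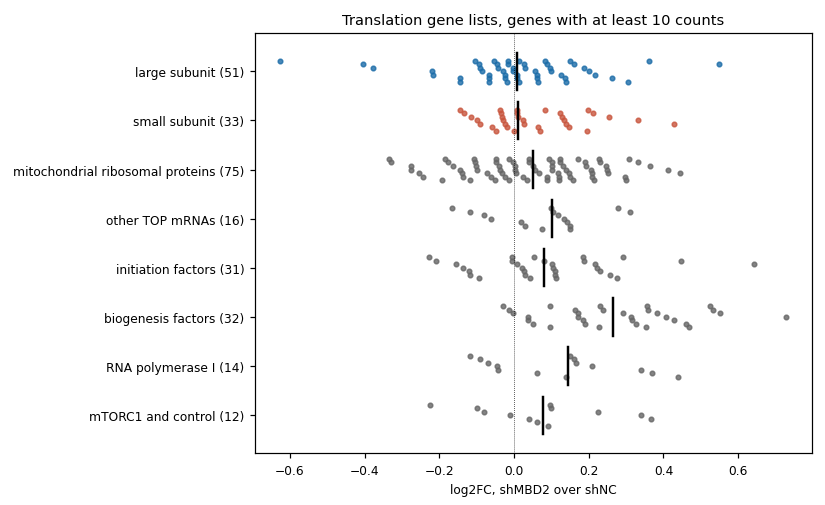
Log2FC of shMBD2 over shNC for each gene with at least 10 counts, in the 2 groups of cytosolic ribosomal proteins and 6 other lists of translation genes, with the number of genes in brackets. Points are genes and black bars are medians. Medians of both subunits are at 0.0081 and 0.011, and that of the biogenesis factors is at 0.26.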

How the data were processed

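Total RNA of TFK1 cells was sequenced, with 1 library of shMBD2 and 1 of shNC. The authors deposited whole-number read counts per gene, not normalized, and a table of TPM. The submitters' processing notes name fastp, HISAT2 2.1.0, featureCounts, DESeq 1.18.1 and the build GRCh38.p13. The positions written in the tables differ from GENCODE 29 on GRCh38, so none is given here. Each table has 63723 rows, of which 46 without a gene were dropped. Symbols repeat their values over several identifiers. Keeping a single row for each symbol and value left 56638 genes, with TPM summing to 1000000 per library.

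Log2FC was computed from counts with TMM factors (edgeR 4.0.16, R 4.3.3), a prior of 0.5 counts and at least 10 counts over both libraries. The 95% intervals treat the reads of a gene as a binomial split between the libraries (exact Clopper-Pearson, scipy 1.17.1). They cover counting error only, and a count of 0 allows up to 3 counts. There is no replicate, so there is no test and no p-value. The scripts were tested on simulated counts.

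The genes and lists were chosen with earlier results of these data known. The text names the 8 highest and 8 lowest ribosomal protein genes whose larger count was at least 100, the 5 with the most TPM, paralogs with their parents, the P stalk and 5S genes, and the highest and lowest gene of each other list, except for items that are not reported here. Further genes were named after their values were seen, among them the least expressed genes, RPL37, RPS27A, RPS6, RPS19, RPSA and RPL13A. The classes of shared sequence, the length groups and the band of 0.25 were set after the data were seen. Sequences are from RefSeq (GRCh38.p14) and transcripts from GENCODE 29. Alternatives were DESeq2 1.42.0 size factors, total counts, upper-quartile factors, TMM without the ribosomal protein or mitochondrial genes, log2 of TPM plus 0.1 or 1, a prior of 2, and other count minimums and gene sets.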

Additional observations from a re-analysis of the deposited data

How the results depend on the processing

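No paired analysis was possible because shMBD2 and shNC were sequenced once each. For the same reason no replicate could be left out, and the spread between cultures is unknown. The median log2FC of all ribosomal protein genes lay between -0.020 (log2 of TPM plus 0.1) and 0.017 (DESeq2 size factors) over the scalings, and 71 of 84 genes kept their sign under each of them, while 13 changed it. The number higher in shMBD2 was between 35 and 48. Of 1151 values of single genes under the alternatives, 1145 lay inside the counting interval. The other 6 were those of RPL4, RPS2 and RPLP0 with log2 of TPM plus 0.1 or 1.

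The number past a log2FC of 0.5 or -0.5 was 1 with log2 of TPM plus 1, with at least 100 counts and without the paralogs, and 0 with at least 1000 counts, an alternative chosen after seeing the data. The number past 1 or -1 was 1 with at least 1 count, the added gene being RPS10L. The log2FC of the large-subunit sum was 0.019 with DESeq2 size factors, -0.0068 with total counts and -0.025 with the sum of TPM. That of the small-subunit sum was 0.011 with total counts and 0.0036 with the sum of TPM. The share of the ribosomal protein genes was 4.02% in shMBD2 and 4.01% in shNC without mitochondrial genes in the total, 3.79% in both with pseudogene counts added, and 5.38% and 5.43% of the sum of TPM. The shares and sums moved with the divisor or the genes that each alternative uses. With TPM plus 1, RPL3L, which is below 1 TPM in both libraries, had a log2FC of -0.29 and so was no longer past -0.5. The difference of the subunit medians, large minus small, lay between -0.024 (pseudogene counts added) and 0.0043 (at least 1000 counts). Adding pseudogene counts to each gene was also chosen after seeing the data.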
